A study of Mus musculus with 6 samples.

Results

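Tenm3 and Gpm6a are 2 genes for neuronal membrane proteins on mouse chromosome 8, and 11 of the 230 CG regions in the authors' deposited table of differential methylation overlap them. Tenm3 holds 10 of these regions and Gpm6a holds 1. Their members were chosen by position, as the listed regions within the RefSeq bounds of Tenm3 (chromosome 8, 48225665 to 49522824, GRCm38) and the listed region of Gpm6a at 54868254 to 54868708, and the genes themselves were picked on the methylation differences in the same table. The levels, differences and q-values below are therefore a description of what the table holds, and no test was made on them. The assay was bisulfite sequencing of the whole genome. Cytosines that survive the conversion are read as methylated, and the methylation level of a CpG runs from 0 to 1, with 5-methylcytosine and 5-hydroxymethylcytosine read as one.

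The samples were CA1 tissue, laser-dissected from frozen hippocampus of 3 wild type C57Bl6 mice and 3 Neil3-/- mice on a C57Bl6 background. The knockout animals lack NEIL3, a DNA glycosylase of base excision repair. All 6 were males aged 3 to 6 months, taken from the home cage with no intervention, and the tissue was not sorted, so neurons and glia were measured together. The question was how methylation in CA1 differs without NEIL3. The table gives 1 mean per group and region and neither a value per animal nor a read depth, so no spread between animals can be set beside any value here, and whether the knockout lacked reads or lacked methylation at a CpG cannot be told apart. All group means below are the authors' means. The group order is known only from the title of the table, which puts wild type first.

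Teneurin-3, the product of Tenm3, is a large single-pass membrane protein whose extracellular part binds other teneurin-3 molecules and the latrophilin receptors on facing cells. In mice, matching teneurin-3 levels on CA1 axons and subiculum neurons guide the topographic connection between these fields. GPM6A is a neuronal membrane glycoprotein that promotes the outgrowth of filopodia and neurites. In neurons most CpGs within transcribed genes are methylated, whereas CpG-dense promoters usually are not.

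Sequences at RefSeq starts of both genes are shown first. Most Tenm3 distances in the text below are instead taken to other starts in the authors' gene table, which lists 7 for Tenm3. Each sequence covers 250 bases before to 50 bases after a RefSeq start (GRCm38.p6), written in the direction of transcription, with every CpG dinucleotide (the letters CG, the same on both strands) in capitals.
Tenm3, chr8:48674641-48674940, minus strand: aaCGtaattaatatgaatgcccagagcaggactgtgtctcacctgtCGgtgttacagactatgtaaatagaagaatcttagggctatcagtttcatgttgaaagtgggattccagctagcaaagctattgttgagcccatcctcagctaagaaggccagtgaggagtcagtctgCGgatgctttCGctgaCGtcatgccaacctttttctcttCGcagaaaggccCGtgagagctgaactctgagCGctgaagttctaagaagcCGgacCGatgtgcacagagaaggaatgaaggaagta
Gpm6a outer start, chr8:54779184-54779483, plus strand: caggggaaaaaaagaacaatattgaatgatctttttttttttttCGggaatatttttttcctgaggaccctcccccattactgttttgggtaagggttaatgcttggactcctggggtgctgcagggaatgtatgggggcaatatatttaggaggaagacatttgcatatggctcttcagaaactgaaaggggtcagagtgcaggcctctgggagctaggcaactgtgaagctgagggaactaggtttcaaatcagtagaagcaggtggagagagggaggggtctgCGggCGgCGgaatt
Gpm6a inner start, chr8:54954478-54954777, plus strand: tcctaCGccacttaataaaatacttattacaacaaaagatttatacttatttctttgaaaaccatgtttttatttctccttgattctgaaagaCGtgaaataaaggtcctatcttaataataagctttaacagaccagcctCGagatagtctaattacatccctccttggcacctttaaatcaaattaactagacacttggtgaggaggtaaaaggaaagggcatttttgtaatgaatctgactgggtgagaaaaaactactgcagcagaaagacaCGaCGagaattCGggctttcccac
The Tenm3 window held 10 CpGs, the outer Gpm6a window 4 and the inner Gpm6a window 6. Across 32851 RefSeq windows of the same length, 94.6% held at least 1 CpG and the median was 7, and 43.5% held as many as the Tenm3 window or more. None of the 3 windows overlapped a listed region. The nearest listed region lay 5.0 kb inside Tenm3, and for Gpm6a it lay 88.8 kb from the outer start and 86.0 kb from the inner one.

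In Gpm6a the single listed region was almost fully methylated in wild type and almost unmethylated in the knockout. At 54868254 to 54868708, over 53 CpGs, the authors' wild type mean was 0.928 and their knockout mean was 0.00629. By the authors' deposited table its q-value was 7.60e-39, and only 1 of the 230 listed regions had a larger difference in size. If the mean weights CpGs equally, the levels of the 53 CpGs summed to 49.2 in wild type and to 0.333 in the knockout, so that no CpG of the region could have had a knockout level above 0.333. Neither the weighting of CpGs nor the treatment of CpGs without reads is stated in the sources.

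The Gpm6a region was dense in CpGs for its part of chromosome 8. It held 11.6 CpGs per 100 bp, second among the 114 listed regions in the stretch around Neil3 described below. It was seventh there by its number of CpGs, and its density ranked 36 among all 230 listed regions. The promoter windows of the same gene, printed above, held 1.33 and 2.00 CpGs per 100 bp, each counted once in the printed sequence. The count for the region is the authors' own. Whether it counts a CpG once or on each strand is not stated, so the densities of region and windows may not be comparable. The region lies between the outer start at 54779434 and the start in the authors' deposited gene table at 54954843, 86.1 kb before the latter. It is therefore inside the gene in RefSeq (54779434 to 55060878) and upstream of it in the authors' gene table (54954843 to 55060871). No other annotated gene overlapped it, and the nearest inside Gpm6a was the long noncoding RNA gene LOC115486929, which begins 13.1 kb further on. Exons and introns were not analysed here.

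**Figure D1:**
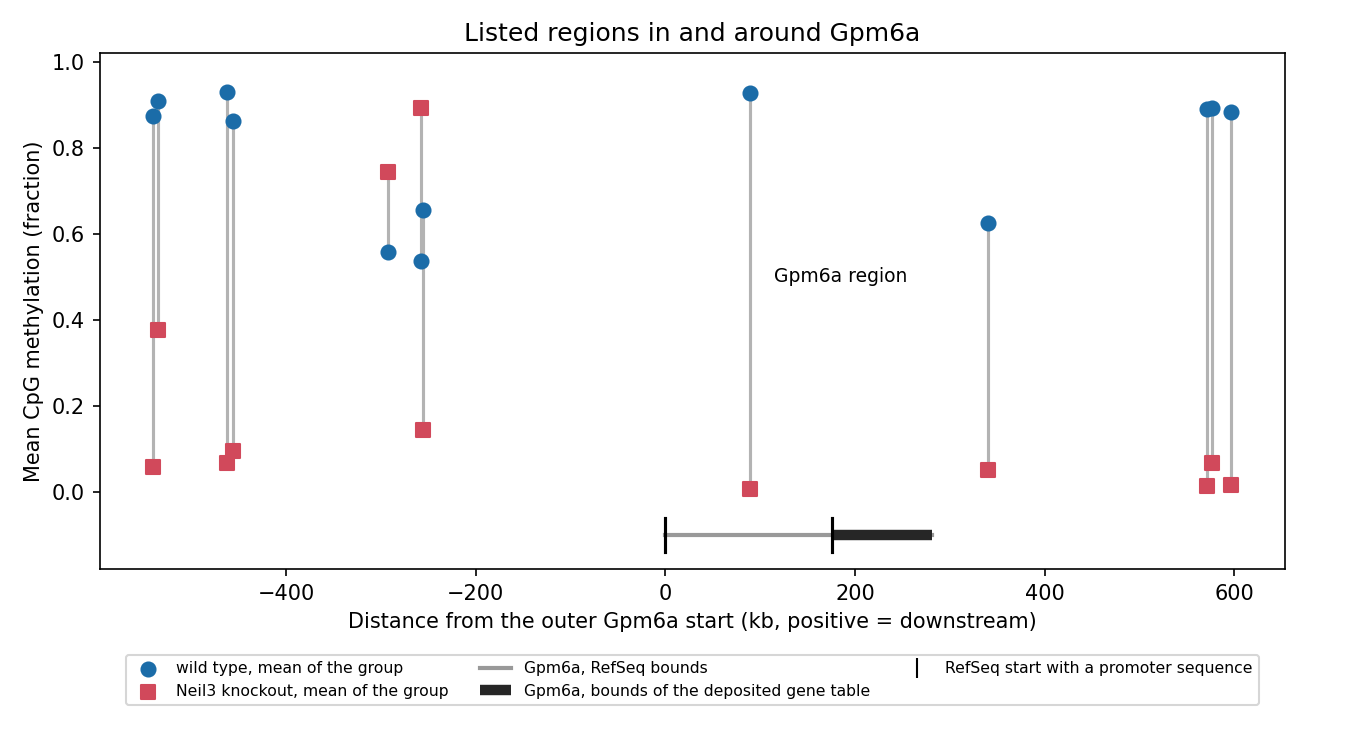
Mean CpG methylation (fraction, vertical axis) of each listed region in and around Gpm6a against its distance from the outer Gpm6a start (kb, horizontal axis). Circles are the authors' wild type means, squares their knockout means, a line joins the pair of a region, and bars under the points show the gene; the Gpm6a region drops from 0.928 to 0.00629 and stands alone within the gene.

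The nearest listed regions on either side of the Gpm6a region lay outside the gene, 251 and 345 kb from that region. On the side of higher coordinates the nearest was at 55119697 to 55120583, 58.8 kb past the gene in Gm51572, where the mean fell by 0.574 from 0.624 in wild type. On the other side, a pair of regions in Spcs3, which encodes a subunit of the signal peptidase, lay 256 and 258 kb before the gene and went in opposite directions. Against a wild type mean of 0.655 the knockout mean was 0.144 at 54523037 to 54523372, while at 54521012 to 54521220 it was 0.892 against 0.536.

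In Tenm3, 9 of the 10 listed regions were lower in the knockout and 1 was higher. Together with Gpm6a this made 10 of 11 lower, where 70.9% of all 230 listed regions and 96.5% of the 114 around Neil3 were lower. Outside both genes, 100 of the 103 regions around Neil3 were lower. The Tenm3 regions held 161 CpGs in 4833 bp. Weighted by CpG number, the wild type means averaged 0.787 over the 10 regions, and the knockout means averaged 0.272. Over the 9 lower regions the averages were 0.808 and 0.223. Wild type means were above 0.8 in 7 of the regions and between 0.5 and 0.6 in the other 3. Knockout means were spread more widely, from 0.00280 to 0.885.

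Tenm3 is read from the minus strand, so its 5′ end lies at the higher coordinates. The authors' gene table bounds it at 48227682 to 48843951 and gives 7 transcription starts. The RefSeq gene reaches a further 679 kb upstream, to 49522824, and rests on 2 curated and 24 predicted transcripts. Only 2 listed regions fell within the bounds of the authors' table, and the other 8 fell within the upstream extension. Over the whole RefSeq gene this was 7.71 regions per Mb, beside 8.39 in the rest of the stretch around Neil3 outside both genes. Within the authors' bounds it was 3.25 per Mb and in the extension 11.8, which rest on these counts of 2 and 8. The starts of the predicted transcripts in the extension were not analysed here. The 444 kb at the 3′ end and the 346 kb at the 5′ end of the RefSeq gene held no listed region.

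The region closest to a start in the authors' gene table lay 5.0 kb downstream of the start at 48674684, at 48669201 to 48669688. It is the region nearest to the Tenm3 promoter printed above, and it also overlaps Gm39178, a long noncoding RNA gene (48660804 to 48671892). With 18 CpGs, it had a wild type mean of 0.925 and a knockout mean of 0.293. The authors' deposited table gives it q = 0.000254. The second region inside the authors' bounds was at 48755730 to 48756091, 81.0 kb upstream of the start at 48674690. It was only partly methylated in wild type, at 0.588 over 12 CpGs, and had a knockout mean of 0.143.

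The remaining regions lay 138 to 333 kb upstream of the outermost start in the authors' table, and 6 of them fell within 61.4 kb, from 48982062 to 49043423. This group held both the smallest and the largest knockout mean of the gene. At 49016747 to 49017065, 14 CpGs had a wild type mean of 0.922 and a knockout mean of 0.00280, the lowest knockout mean of the 114 regions around Neil3. The q-value of this region was 3.20e-09 by the authors' deposited table. With CpGs weighted equally, the 14 levels summed to 12.9 in wild type and 0.0392 in the knockout. At 49043083 to 49043423, 26.0 kb further upstream, the order was turned, and 12 CpGs had a knockout mean of 0.885 above a wild type mean of 0.524.

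Some neighbouring regions of this group shared a level in wild type or in the knockout, but none in both. Between the regions at 48982062 and 48989262, wild type means differed by 0.00580 and knockout means by 0.446. Between those at 48991192 and 49015765, knockout means differed by 0.0188 and wild type means by 0.320. Only 557 bp separated the region at 49016747 from the one at 49015765 to 49016189, where 18 CpGs had a wild type mean of 0.561 and a knockout mean of 0.246. The former thus went from nearly full to nearly no methylation, and the latter from an intermediate to a low level. A second close pair was 1022 bp apart. At 48989262 to 48990169, 20 CpGs had a wild type mean of 0.821 and a knockout mean of 0.0458. At 48991192 to 48991516, 14 CpGs had means of 0.881 and 0.265, so the wild type levels differed by 0.0593 and the knockout levels by 0.219. The sixth region, at 48982062 to 48982546, had the most CpGs of the gene, 28, and kept the highest knockout level among the lower regions, at 0.492 below a wild type mean of 0.816. The authors' deposited table gives it q = 6.21e-09.

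**Figure D2:**
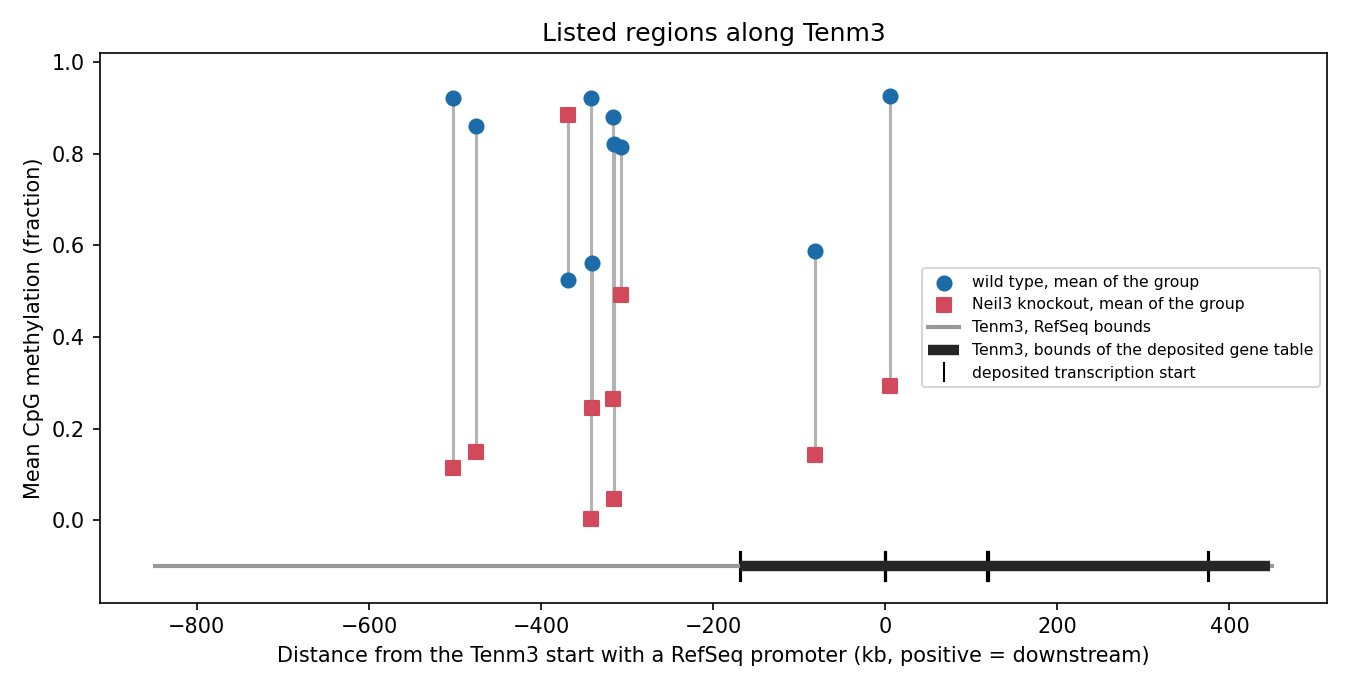
Mean CpG methylation (fraction, vertical axis) of the 10 listed regions of Tenm3 against their distance from the start at 48674690 (kb, horizontal axis, positive downstream). Circles are the authors' wild type means and squares their knockout means, joined for each region, with the gene bounds and deposited starts drawn below; 8 regions lie upstream of the bounds in the authors' table, and the knockout lies above wild type in 1 of them.

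The 2 regions farthest upstream resembled each other. At 49149663 to 49150422, 15 CpGs had a wild type mean of 0.860 and a knockout mean of 0.148. At 49176562 to 49176981, 10 CpGs had means of 0.923 and 0.115. They had 1.97 and 2.38 CpGs per 100 bp, among the lowest densities of the gene, whose regions reached 5.77. Just outside the gene, the nearest listed region was 30.1 kb beyond its 3′ end, at 48194815 to 48195581, with means of 0.898 and 0.0145 in the same order. On the 5′ side the next listed region lay 665 kb away, at 50187534 to 50187885 in 1700019L22Rik, with means of 0.890 and 0.0343.

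The table holds no region with a q-value above 0.0475, a difference under 0.101 in size or fewer than 10 CpGs. The Tenm3 members closest to the limit on q were the higher region at 49043083 (q = 0.0318 in the authors' deposited table) and the one at 49015765 (q = 0.0262 in the authors' deposited table). The least number of CpGs that the table holds, 10, was that of the region at 49176562. All 11 differences were far from the limit on size, from 0.315 to 0.922 by the authors' deposited table.

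**Figure D3:**
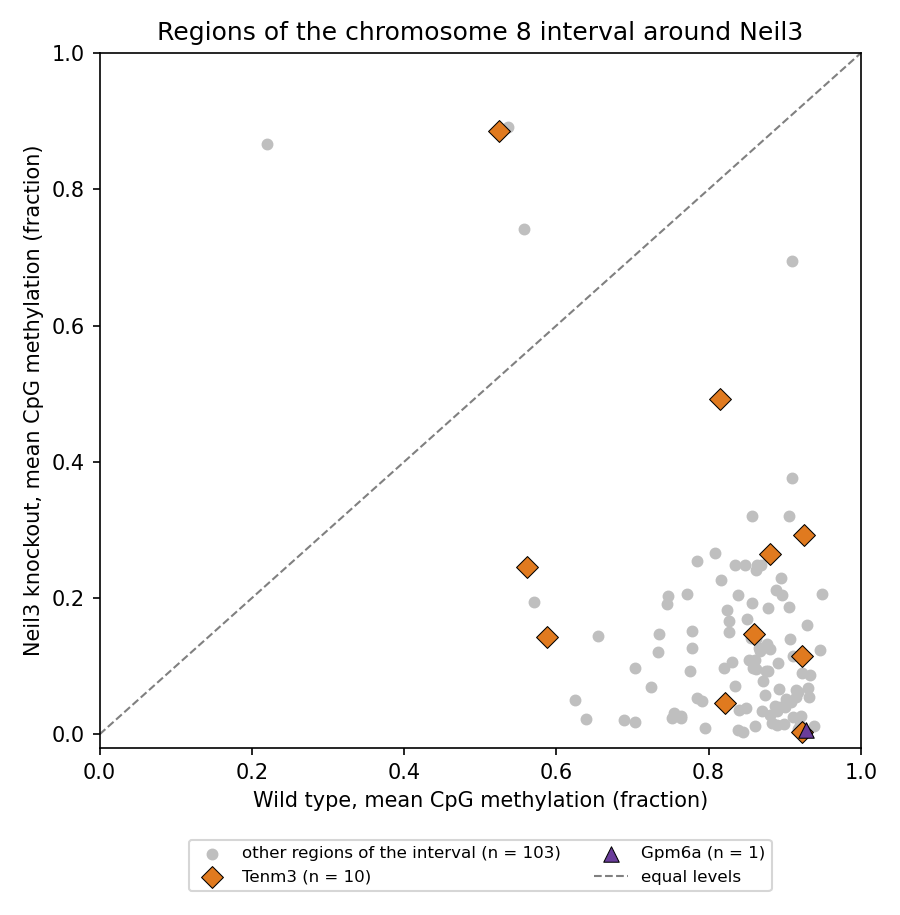
Authors' mean CpG methylation (fraction) in the knockout (vertical axis) against wild type (horizontal axis) for the 114 listed regions around Neil3. Diamonds are the 10 Tenm3 regions, the triangle is Gpm6a, grey points are the other 103 regions and the dashed line marks equal levels. Gpm6a and 1 Tenm3 region lie at the bottom right corner, among other regions of the stretch. Above the line lie 1 Tenm3 region and 3 of the other regions.

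Both genes lie in the stretch of chromosome 8 that surrounds Neil3, the disrupted gene (53586867 to 53639065). This stretch, 47003301 to 60851601, joins listed regions less than 2 Mb apart and holds 114 of them. The Gpm6a region is 1.23 Mb from Neil3 on one side, and the Tenm3 regions are 4.41 to 4.92 Mb away on the other. Every knockout animal carries the disrupted allele together with the DNA next to it, so the loss of NEIL3 and any difference in the linked DNA cannot be told apart in these regions. Of the 114 regions, 47.4% had a knockout mean under 0.1. These were 3 of the 11 in Tenm3 and Gpm6a (2 and 1) and 51 of the 103 outside both genes. Over Tenm3 alone the median wild type mean was 0.841 and the median knockout mean 0.197. Over the 103 regions of the stretch outside both genes these medians were 0.862 and 0.104. These medians come from the values that chose the genes and were not tested against each other. Intermediate wild type means, between 0.5 and 0.6, occurred in 3 of the Tenm3 regions and in 3 of the other 103. This band was not planned, and the counts come from the same values and were not tested. Wild type means of 0.624, 0.639 and 0.655 elsewhere in the stretch lie just above it.

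The median Tenm3 region held 14.5 CpGs in 422.5 bp, and the median of the other 103 regions was 20 CpGs and 565 bp, a difference that was not tested. The median CpG density was 3.60 per 100 bp in Tenm3 and 3.80 in the others, while Gpm6a stood near the upper end of all 114.

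**Figure D4:**
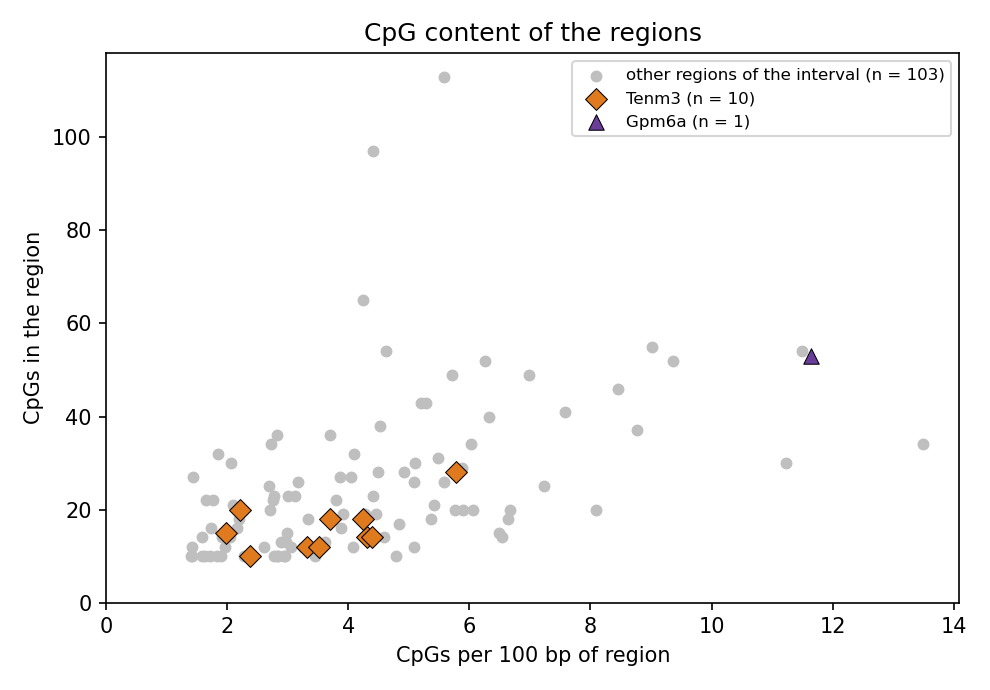
Number of CpGs (vertical axis) against CpGs per 100 bp (horizontal axis) for each of the 114 listed regions around Neil3. Diamonds are Tenm3, with 10 to 28 CpGs and densities of 1.97 to 5.77, the triangle is Gpm6a, with 53 CpGs and a density of 11.6, and grey points are the other 103 regions.

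The partners and relatives of the 2 proteins were looked up as well. The list held 23 genes, namely the 4 teneurins, the 4 receptors of the latrophilin family, 3 FLRT proteins, which bind latrophilins, 4 UNC5 receptors, which bind FLRT proteins, 3 neurexins, 3 neuroligins and the 2 M6 glycoproteins Gpm6a and Gpm6b. Of these, 2 held a listed region, and they were Tenm3 and Gpm6a, which the list contains by construction. Tenm1, Tenm2 and Tenm4, the latrophilin genes Adgrl1, Adgrl2 and Adgrl3, and Gpm6b held none. Over the genome 0.139% of 49603 annotated genes overlapped a listed region, and in the stretch around Neil3 12.4% of 137 genes did. None of the other genes of the list lies in that stretch, so only the genome share applies to them. A count of 0 among them is near that share. The closest of these to a listed region were Nlgn3, a neuroligin of excitatory and inhibitory synapses, at 0.434 Mb, and Tenm1, at 0.840 Mb, both on the X chromosome. None of 17 marker genes of CA1 neurons, oligodendrocytes, astrocytes and microglia overlapped a listed region, which is near the genome share of 0.139%. A list of differences between genotypes could not check the dissected tissue, whether or not a marker overlapped.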

How the data were processed

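DNA methylation was profiled by bisulfite sequencing of CA1 DNA from 3 wild type and 3 Neil3 knockout mice. Reads were aligned with BSMAP, and the genome was GRCm38 (mm10), per the submitters' processing notes; no source used here names their versions, the region caller or its settings. The authors' deposited table gives each region's methylation level as a fraction, as a mean per group. It also gives a q-value per region by the authors, with the adjustment not stated, and a deposited count of CpGs per region. Whether that count takes each strand separately is not stated either. GC content in percent, in the authors' deposited gene table, was not used. Read depth is unknown, and no value per animal is given, so the planned values per animal, permutation tests and leaving out of animals could not be made.

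From these files the 11 regions were found by overlap with RefSeq gene bounds (GRCm38.p6, both symbols matched; 49603 genes, after 340 with scaffold positions below 3 Mb were dropped). Distances to deposited transcription starts, CpG density and sums of levels (mean times CpG number) were computed with Python 3.11.15 and pandas 2.3.3. Directions follow the deposited difference, which equalled the difference of the authors' means within 0.001 in all 11. The overlap rule was tested on simulated regions. Bounds may be off by 1 base. Genes named are the members, genes of the lists that hold a region, overlapping or nearest genes, and the listed regions next to each gene. The naming of relatives without a region, and of the closest ones, followed a look at the values. The members, the lists and the stretch around Neil3 were chosen with earlier results of these data known. 1 gene of the lists is not reported here. Sequences are from RefSeq.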

Additional observations from a re-analysis of the deposited data

How the results depend on the processing

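The count of lower regions was 10 of 11. The sign of the difference of the means could not change it, because the deposited differences equal these within 0.001. A limit of 0.3 on size could not change it either, since the smallest difference was 0.315. With q under 0.001 the count was 7 of 7. With at least 20 CpGs only 3 regions were left, and 3 were lower. The higher Tenm3 region is lost under these last 2 limits because it has 12 CpGs and a q-value of 0.0318. The median difference in the authors' deposited table, knockout against wild type, was -0.63, and from the means it could only be the same. Knockout means were under 0.1 in 3 regions, under 0.05 in 3 and under 0.2 in 6. Tenm3 held 10 regions by any overlap, by full inclusion and with 5 kb added on each side, and 2 within the bounds of the authors' gene table, which leave out the upstream part of the gene. Extending genes by 5 kb left 2 of 23 partner and relative genes with a region. No paired analysis was possible because the deposited table gives group means only, and for the same reason no animal could be left out in turn. The unknown depth limits every level.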
